A study of Mus musculus with 9 samples.

Results

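The mRNAs of 8 genes for co-stimulatory and checkpoint ligands were followed in RAW264.7 cells, a macrophage line from BALB/c mice that RANKL, the cytokine behind osteoclast formation, turns into osteoclast-like cells. The genes are Cd40, Cd80, Cd86, Icosl, Cd274, Pdcd1lg2, Cd83 and Icam1. They were chosen by name for what their proteins do, and they are 8 of the 23282 gene rows measured. The 9 libraries fall into 3 groups of 3. In the negative control (RANKL alone) the cells received RANKL at 50 ng/mL. By the study's methods, the surface protein-treated cells received RANKL together with proteins taken from the cell surface of Propionibacterium freudenreichii MJ2, a dairy bacterium, at 10 µg/mL. The remaining group received heat-killed MJ2 at 10000000 cells/mL, and whether RANKL was given to it as well is not stated for its libraries. The labels give these doses for the series as a whole. Treatment lasted 4 days in all groups, the cells were a single line at passage 30, and no label says whether the replicates of a group came from separate cultures, so the p-values below measure the spread between these libraries, which may be technical.

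A T cell needs a further signal beside its antigen receptor, and the macrophage gives it through surface ligands. CD80 and CD86 bind the activating receptor CD28 and the inhibitory receptor CTLA-4 on the T cell, and ICOSL binds ICOS. CD40 is itself a receptor on the macrophage, which the T cell engages with CD40 ligand. The checkpoint ligands PD-L1 (Cd274) and PD-L2 (Pdcd1lg2) bind PD-1 and restrain the T cell. ICAM-1 holds the contact together by binding the integrins LFA-1 and Mac-1, and CD83, a marker of mature dendritic cells, keeps CD86 and MHC class II on the surface by limiting their ubiquitination.

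Values are on the deposited log2 scale. Raising 2 to a value and subtracting 1 gives its adjusted reads, that is, reads after the scaling between libraries. Reads come from the 3′ ends of the mRNAs, so levels need no correction for transcript length. Levels of different genes are set side by side as deposited, and they also depend on how well the annotation used for counting covers each 3′ end, which is not known. The libraries held 5930926 to 6503682 adjusted reads each, of which the ribosomal RNA gene Rn45s took 8.91 to 12.4%. A gene at 3 adjusted reads or fewer was treated as undetected, a floor that covers counting error only. In each group 1 library lists small fractions of a read where the other libraries list 0, and values under 0.5 were read as no read. In a bulk sample, fewer cells that make an mRNA and less of it per cell cannot be told apart.

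The surface protein-treated cells held more Cd40 and Cd274 mRNA than RANKL alone in every library, by 40.5-fold and 3.93-fold, and more Icosl, a call that rests on few reads. Cells given heat-killed MJ2 held 12.8-fold more Cd40 mRNA than RANKL alone, and no other tested member passed the threshold there. As RANKL is not stated for that group, an effect of the bacteria and a lack of RANKL cannot be told apart. Cd86 went from no read in RANKL alone to a low but detected level in every treated library. Cd80, the other CD28 ligand, did not pass the threshold in any comparison. In surface protein-treated cells Icam1 lay below RANKL alone, without passing the test, while in heat-killed MJ2 it lay above.

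Each comparison was fitted with limma over all genes that reached 10 adjusted reads in 3 or more of its 6 libraries. To pass, a gene needed a Benjamini-Hochberg adjusted p under 0.05 together with a change of 2-fold or more. Between surface proteins and RANKL alone 6 of the 8 members could be tested and 3 passed, all higher (Cd40, Cd274 and Icosl), where 17.5% of the 10874 genes tested passed, 10.2% as higher and 7.32% as lower. Cd40 and Icosl entered that test only through the treated libraries. Of the 4 members with 10 adjusted reads in both groups, Cd274 passed. Between heat-killed MJ2 and RANKL alone 5 members could be tested and Cd40 alone passed, where 4.26% of 10814 genes passed, 3.37% as higher and 0.897% as lower. Cd40 again entered only through the treated libraries, and of the 4 members with 10 adjusted reads in both groups none passed. Between surface proteins and heat-killed MJ2 6 could be tested and again Cd40 alone passed, as higher, where 10.1% of 10916 genes passed, 5.08% as higher and 4.97% as lower. Over all genes tested the median log2 fold change was -0.01, 0.00 and 0.03 in the 3 comparisons.

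**Figure D1:**
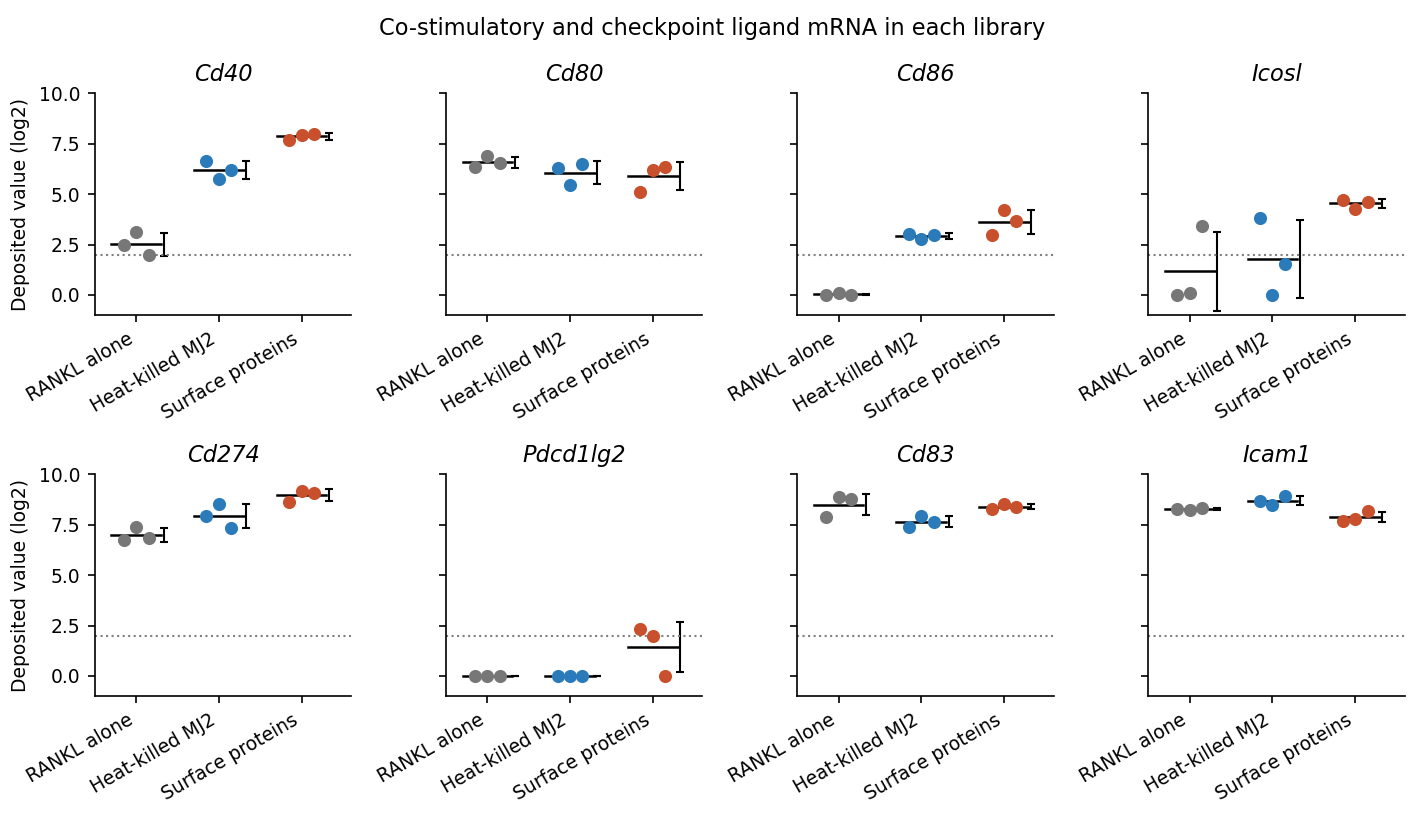
Deposited log2 value (y axis) of each of the 8 ligand mRNAs in the 3 libraries of each group (x axis). Points are libraries, horizontal bars are group means, error bars are 1 SD (n = 3), and the dotted line is the floor of 3 adjusted reads. Cd40 climbs from a mean of 2.53 to 6.20 and 7.87, Cd86 leaves the floor in both treated groups, and Cd80 stays between 5.10 and 6.87 in all 9 libraries.

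Cd40 was the member with the widest range. Its 3 libraries of RANKL alone held 4.59, 7.67 and 2.95 adjusted reads, close to the floor. Heat-killed MJ2 gave 98.3, 53.2 and 73.5, and surface proteins gave 206, 241 and 253. The 3 groups did not overlap. In rank among the rows with more than 1 adjusted read, Cd40 went from percentiles 2.73 to 12.0 in RANKL alone to percentiles 58.6 to 65.5 in surface protein-treated cells. On the log2 scale the difference from RANKL alone was 5.34 (SE 0.30, adjusted p = 0.000287) with surface proteins and 3.68 (SE 0.35, adjusted p = 0.00464) with heat-killed MJ2, both by limma. The direct comparison of the treatments was 1.66 (SE 0.24, adjusted p = 0.0127, limma), so surface protein-treated cells held 3.16-fold more Cd40 mRNA than cells given heat-killed MJ2. Leaving out each library in turn kept these calls, and the least certain, the direct comparison without replicate 3 of heat-killed MJ2, stood at the limit of the test (adjusted p = 0.05). With the control so close to the floor, the constant added before the log enters the fold change: with 0.1 or 2 in place of 1 the log2 difference between surface proteins and RANKL alone was 5.60 or 5.11.

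The CD28 ligands did not move together. Cd80 held 79.7, 116 and 92.9 adjusted reads in RANKL alone, 76.7, 42.5 and 89.3 in heat-killed MJ2 and 33.2, 72.9 and 81.2 in surface protein-treated cells. The groups overlapped, and the log2 difference was -0.70 (SE 0.36, adjusted p = 0.195) with surface proteins and -0.51 (SE 0.31, adjusted p = 0.38) with heat-killed MJ2, in limma's test. Cd86 was at 0, 0.0563 and 0 adjusted reads in RANKL alone, which is no read in any library. It reached 7.16, 5.80 and 6.87 in heat-killed MJ2 and 6.85, 17.4 and 11.9 in surface protein-treated cells. Both treated groups lay above all control libraries and overlapped each other. Against the floor of 3 adjusted reads per library, the mean level of Cd86 in surface protein-treated cells was at least 4.02-fold higher, and that in heat-killed MJ2 at least 2.20-fold higher. These counts are too low for the filter, so no test of Cd86 is given here.

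Differences between a pair of mRNAs of the same library cancel a single scaling factor for that library, apart from the constant before the log, but not a quantile normalization. Cd80 exceeded Cd86 in all 9 libraries. Because Cd86 was undetected in RANKL alone, the excess there is a lower bound, at least 4.33, 4.87 and 4.55 on the log2 scale in the 3 libraries. It was 3.25, 2.68 and 3.52 in heat-killed MJ2 and 2.12, 2.01 and 2.67 in surface protein-treated cells. No groups overlapped, in any pair of groups, and p was 0.1 in each exact permutation test (two-sided), the smallest that 3 libraries against 3 allow. After quantile normalization the groups still separated from RANKL alone (exact permutation p = 0.1), but surface proteins and heat-killed MJ2 overlapped, with a change of -0.85 between them (exact permutation p = 0.2). Between Cd40 and Cd86 the excess of Cd40 was 2.99 to 3.60 in heat-killed MJ2 and 3.72 to 4.72 in surface protein-treated cells (exact permutation p = 0.1), while in RANKL alone both lay near or under the floor. The excess of Cd274 over Cd86 was at least 4.75 to 5.40 in RANKL alone, 4.36 to 5.79 in heat-killed MJ2 and 4.99 to 5.66 in surface protein-treated cells. On the deposited scale, with Cd86 at its values near 0, the excess changed by -1.62 with surface proteins and -1.94 with heat-killed MJ2 against RANKL alone, without overlap (exact permutation p = 0.1 for each). Since the control values are lower bounds that overlap the treated ones, neither the size nor the direction of these changes is settled.

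Icosl was detected above the floor in 1 library of RANKL alone, at 0, 0.0695 and 9.88 adjusted reads. Heat-killed MJ2 gave 13.3, 0 and 1.94, and surface proteins gave 25.5, 18.3 and 23.9. Surface protein-treated libraries lay above all others, and the remaining groups overlapped. The log2 difference between surface proteins and RANKL alone was 3.36 (SE 0.92, adjusted p = 0.0375, limma), which passed. As 2 of the 3 control libraries hold no read, its size is uncertain. It was 2.06 (adjusted p = 0.0122, limma) with values raised to the floor of 3 adjusted reads, an alternative chosen after the data were seen, and when a library was left out it ran from 2.77 without replicate 1 to 4.50 without replicate 3 of RANKL alone. The call did not hold without a filter (adjusted p = 0.0881), with a constant of 0.1 before the log (log2 difference 5.34, adjusted p = 0.0657), in 1 fit of all 9 libraries (adjusted p = 0.0504), or in 5 of the 6 fits that left out a library, all in limma's test. Those 5 ran from an adjusted p of 0.0899 without the first surface protein library to 0.101 without the first library of RANKL alone. Without replicate 3 of RANKL alone, the only one of that group with Icosl reads, it was 0.000815. Against heat-killed MJ2 the difference was 2.75 (SE 0.90, adjusted p = 0.083, limma) and did not pass, and without the first heat-killed MJ2 library, the highest of that group, it did (3.77, adjusted p = 0.0335). Over all fits that left out a library it ran from 1.85 to 3.77 (adjusted p 0.0335 to 0.192, limma), and no other of them passed.

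Of the PD-1 ligands, Cd274 was plentiful and Pdcd1lg2 nearly absent. Cd274 held 107, 168 and 113 adjusted reads in RANKL alone, 247, 375 and 161 in heat-killed MJ2 and 397, 582 and 540 in surface protein-treated cells. Surface protein-treated libraries lay above every other library, whereas heat-killed MJ2 overlapped RANKL alone in replicate 3. The log2 difference was 1.97 (SE 0.24, adjusted p = 0.00308) for surface proteins against RANKL alone, 0.95 (SE 0.34, adjusted p = 0.172) for heat-killed MJ2 against RANKL alone, and 1.02 (SE 0.33, adjusted p = 0.0813) between the treatments, in limma's test. The last of these passed without the second heat-killed MJ2 library, the highest of its group (1.32, adjusted p = 0.036). Pdcd1lg2 had no read in any library of RANKL alone or heat-killed MJ2. In surface protein-treated cells it was listed at 3.95, 2.92 and 0.0154 adjusted reads, so 1 library of 9 exceeded the floor, and no fold change is given. Any excess of Cd274 over Pdcd1lg2 is therefore a lower bound in 8 libraries, and it was at least 4.75 on the log2 scale in each of the 9.

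Cd274 and Pdcd1lg2 are neighbours in the mouse genome. In the GENCODE M21 annotation of GRCm38 both are on the plus strand of chromosome 19, Cd274 at chr19:29367455-29388095 and Pdcd1lg2 at chr19:29410919-29471161. The gap between them is 22823 bases and holds 0 protein-coding genes. Cd80 (chr16:38455561-38496335, plus strand) and Cd86 (chr16:36603869-36666081, minus strand) share a chromosome but are 1789479 bases apart, with 25 protein-coding genes between them. Cd40 is at chr2:165055627-165072948, Icosl at chr10:78069302-78083913, Cd83 at chr13:43784775-43803132 and Icam1 at chr9:21015985-21028817, all on the plus strand. Reads from 3′ ends count for a gene only where its annotation reaches them, and the annotation behind the deposited values is not given in the sources used here. GENCODE and RefSeq place the outer 3′ end of Cd86 34913 bases apart, that of Icosl 4388, of Pdcd1lg2 1766, of Cd40 1294 and of Cd80 377. For Cd83, Cd274 and Icam1 the ends are within 3 bases of each other. Antisense genes overlap the last 500 bases of Pdcd1lg2 (A930007I19Rik) and Icam1 (Gm47079), and whether counting used strand is not given in the sources used here. The part that these ends and overlaps have in the levels was not tested.

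RefSeq promoters on GRCm38.p6 were available for 5 of the 8 members and are shown for 3 of them as the 250 bases before the RefSeq start, 5′ to 3′ on the coding strand. Cd274 and Icosl are the members past the threshold that have an entry, and Pdcd1lg2 is the neighbour that stayed near 0. Capitals mark a match to a searched motif.
Cd274, chr19:29367188-29367437: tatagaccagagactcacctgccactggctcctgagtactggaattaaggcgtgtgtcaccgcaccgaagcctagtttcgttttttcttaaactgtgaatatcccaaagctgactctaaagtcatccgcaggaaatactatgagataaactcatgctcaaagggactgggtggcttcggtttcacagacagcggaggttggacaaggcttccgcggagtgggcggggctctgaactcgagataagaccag
Icosl, chr10:78069118-78069367: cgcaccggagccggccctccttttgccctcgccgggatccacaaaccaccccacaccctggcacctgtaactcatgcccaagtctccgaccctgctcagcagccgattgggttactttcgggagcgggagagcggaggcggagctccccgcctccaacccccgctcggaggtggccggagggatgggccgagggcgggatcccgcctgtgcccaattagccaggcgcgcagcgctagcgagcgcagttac
Pdcd1lg2, chr19:29410669-29410918: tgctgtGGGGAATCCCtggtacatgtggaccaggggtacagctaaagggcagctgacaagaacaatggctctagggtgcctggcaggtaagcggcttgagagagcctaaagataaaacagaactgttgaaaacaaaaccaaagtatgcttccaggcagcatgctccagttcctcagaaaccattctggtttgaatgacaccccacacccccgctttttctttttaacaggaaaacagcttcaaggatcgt
Both strands were searched for the interferon response core GAAANNGAAA, the AP-1 site TGANTCA and a strict NF-κB consensus that begins with GGG and ends with CC. Looser NF-κB forms were not searched. Of 32851 promoter windows of this length, 2.98% held the interferon response core, 6.75% the AP-1 site and 3.90% the NF-κB consensus. The 250 bases of Cd274 and Icosl held none of these strings. Pdcd1lg2 held the NF-κB consensus 244 to 235 bases before the start. Cd80 (not shown) held the AP-1 site 42 to 36 bases before its RefSeq start, in the window chr16:38458683-38458932. That window lies inside the Cd80 gene as GENCODE places it, from 38455561 on. A match is a string of letters and was not shown to be bound in these cells. Cd40, Cd86 and Cd83 are named only.

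Cd83 and Icam1 were the most abundant members in RANKL alone. Cd83 held 236, 467 and 433 adjusted reads there, 170, 243 and 197 in heat-killed MJ2 and 308, 373 and 338 in surface protein-treated cells. Heat-killed MJ2 overlapped RANKL alone by a single library and lay below all surface protein-treated libraries. The log2 difference was -0.85 (SE 0.30, adjusted p = 0.162) for heat-killed MJ2 and -0.10 (SE 0.28, adjusted p = 0.818) for surface proteins against RANKL alone in limma's test. Between the treatments Cd83 was 1.68-fold higher with surface proteins (log2 difference 0.75, SE 0.18, adjusted p = 0.0364, limma), under the limit of 2-fold. Its adjusted p was above 0.05 without a filter (0.0614), in a fit of all 9 libraries (0.0859) and in 5 of the 6 fits that left out a library (0.0575 to 0.113), all but that without replicate 2 of heat-killed MJ2.

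Icam1 held 310, 298 and 324 adjusted reads in RANKL alone, the narrowest spread among the members detected in all of its libraries. Heat-killed MJ2 gave 417, 358 and 482, all above the control, and surface proteins gave 206, 222 and 289, all below it. Neither difference from RANKL alone passed: 0.42 (SE 0.15, adjusted p = 0.178) and -0.39 (SE 0.17, adjusted p = 0.134) on the log2 scale, by limma. Set directly against each other the treatments differed by -0.81 (SE 0.19, adjusted p = 0.036, limma), so Icam1 was 1.76-fold lower with surface proteins than with heat-killed MJ2. That difference was also under the limit of 2-fold, and its adjusted p was above 0.05 without a filter (0.0644) and in 4 of the 6 fits that left out a library (0.0815 to 0.113, without replicate 1 or 3 of heat-killed MJ2 or replicate 1 or 2 of surface proteins).

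**Figure D2:**
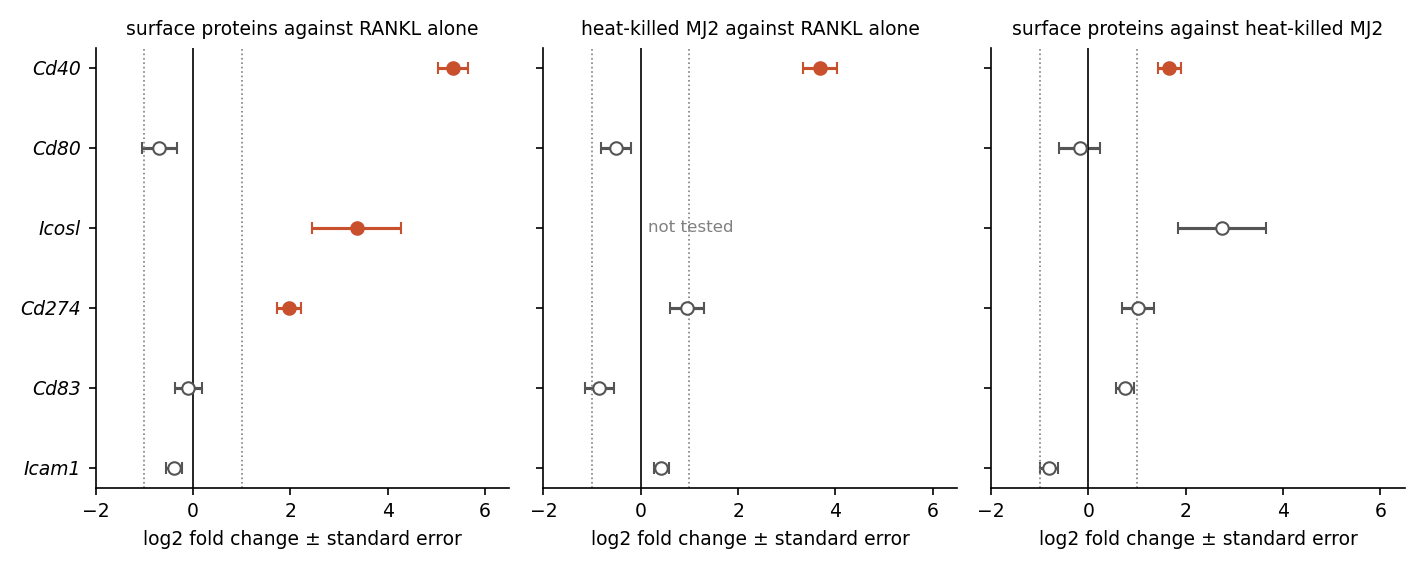
Log2 fold change with its standard error (x axis) of the members that could be tested (y axis) in the 3 comparisons, 6, 5 and 6 of them (Icosl was not tested between heat-killed MJ2 and RANKL alone), from limma with 3 libraries a group. Filled points passed (adjusted p under 0.05 and 2-fold or more), open points did not, and dotted lines mark 2-fold. Cd40 passed in all 3 panels, Cd274 and Icosl in that of surface proteins against RANKL alone, and Icam1 lies on opposite sides of 0 in the first and second panels.

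Counted over the tested members, groups did not overlap for 4 of 6 between surface proteins and RANKL alone, where 48.4% of all genes tested did not overlap. The count was 2 of 5 between heat-killed MJ2 and RANKL alone, beside 30.2% of all genes, and 5 of 6 between the treatments, beside 42.3%. Against RANKL alone, Cd40 and Icosl entered only through the treated libraries. Of the 4 members with 10 adjusted reads in both groups, Cd274 and Icam1 did not overlap with surface proteins, and only Icam1 with heat-killed MJ2. Between the treatments Icosl entered only through the surface protein libraries, and of the 5 members with 10 adjusted reads in both groups only Cd80 overlapped. With 3 libraries against 3 an exact permutation test of 1 gene cannot go below p = 0.1.

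The order of the levels changed between groups. In RANKL alone Cd83 (mean log2 8.51 ± 0.54, SD, n = 3) and Icam1 (8.28 ± 0.06) led and overlapped, then came Cd274 (6.99 ± 0.36) and Cd80 (6.59 ± 0.27), which also overlapped, and the other 4 were near or under the floor. In heat-killed MJ2 the leaders were Icam1 (8.70 ± 0.21), Cd274 (7.95 ± 0.61) and Cd83 (7.66 ± 0.26), of which neighbours overlapped, followed by Cd40 (6.20 ± 0.44) and Cd80 (6.07 ± 0.56), which overlapped too. In surface protein-treated cells Cd274 (8.97 ± 0.29) stood first and did not overlap Cd83 (8.41 ± 0.14), and Cd40 (7.87 ± 0.16) overlapped Icam1 (7.89 ± 0.26). Cd80 (5.89 ± 0.69), Icosl (4.55 ± 0.24), Cd86 (3.62 ± 0.62) and Pdcd1lg2 (1.43 ± 1.23) followed without overlap between neighbours.

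As shares of the 8 members' summed reads, a summary chosen after the values were seen, Cd40 went from 0.55 ± 0.221% (SD, n = 3) in RANKL alone to 7.25 ± 2.31% with heat-killed MJ2 and 16.5 ± 0.779% with surface proteins, and the 3 groups did not overlap. Cd274 made up 14.0 ± 2.23%, 24.9 ± 9.49% and 35.6 ± 2.31%, with surface proteins above RANKL alone in every library and heat-killed MJ2 overlapping both. Cd83 and Icam1 together gave most of the reads in RANKL alone, 40.2 ± 7.07% and 34.5 ± 7.04%. With surface proteins they gave 24.1 ± 2.01% and 16.9 ± 2.18%, both below every library of RANKL alone. With heat-killed MJ2 the share of Cd83 was 19.5 ± 3.02%, also below every library of RANKL alone, while that of Icam1 was 40.5 ± 7.20% and overlapped it. Cd80 went from 10.4 ± 0.806% to 6.74 ± 2.52% and 4.29 ± 1.31%, below every library of RANKL alone in both treated groups. The summed reads themselves were 737.5 to 1056 in RANKL alone, 1011 to 1078 in heat-killed MJ2 and 1186 to 1537 in surface protein-treated cells. Since shares of a whole are tied to each other, a higher share of Cd40 or Cd274 lowers the rest, and all non-overlapping pairs reached only the smallest exact permutation p of 0.1.

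**Figure D3:**
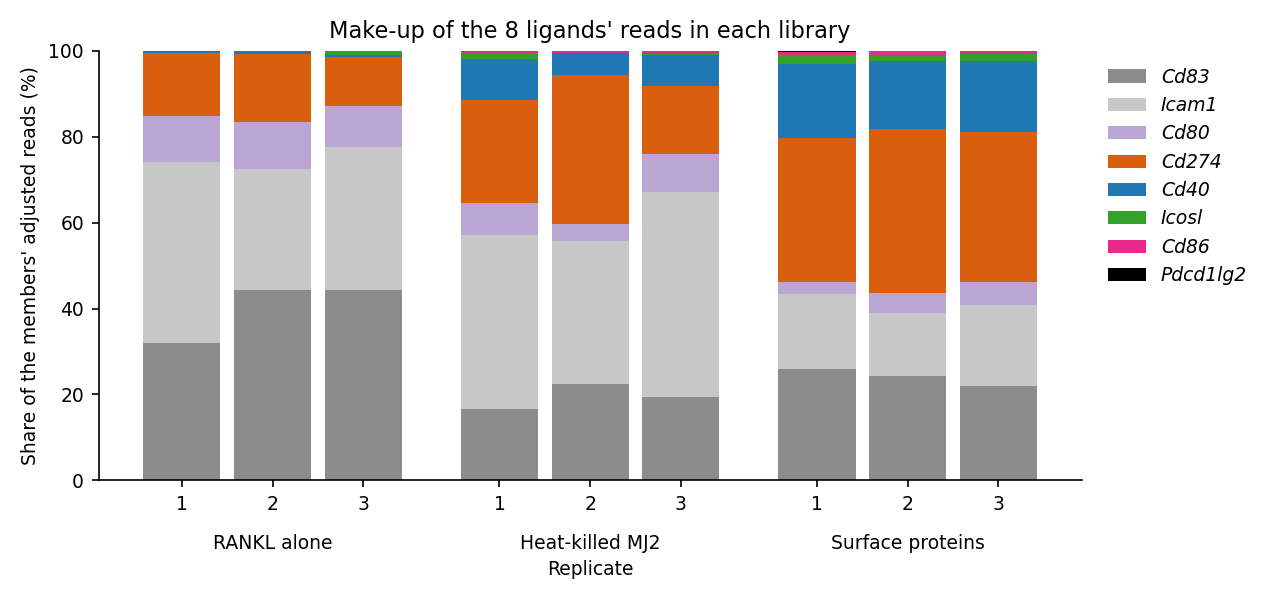
Share of the adjusted reads of the 8 ligand genes taken by each gene (y axis, percent) in each of the 9 libraries (x axis, by group and replicate). Each bar adds to 100%. The mean shares of Cd274 and Cd40 are 35.6% and 16.5% in the surface protein bars, against 14.0% and 0.55% in RANKL alone.

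The genes whose pattern over the 9 libraries was most like that of a member were found by the root mean square difference of log2 values, each gene centred on its own mean, among 11193 genes. For Cd40 they were Klk9 (0.449), Slc28a2 (0.451) and Ankrd45 (0.456), all without reads in RANKL alone and higher in the same order of groups. For Cd274 they were Fndc3a (0.143), Klf6 (0.206) and Dcun1d3 (0.215), for Icam1 Exosc4 (0.101), Slc16a1 (0.103) and Eftud2 (0.106), and for Cd83 Cyp4f13 (0.146), Cadm1 (0.173) and Zfp236 (0.174). Cd80 was nearest to Uck1 (0.207), Cyb561a3 (0.215) and Pik3c3 (0.218), and Icosl to Atp6v1c2 (0.698), Paupar (0.774) and Itga6 (0.775). No member was among the 3 nearest genes of another. The nearest member to Cd40 was Cd274, at rank 458 of all genes. A small difference favours genes that vary little, so these values describe likeness only.

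Receptors of the members and of related ligands, most of them known from T cells, were also looked for in these cells, from a list of 17. The list includes the myeloid integrin chains Itgam and Itgax, and Itgam is counted again among the macrophage markers. At or under the floor in all libraries were 7 of the 17, while others were well detected, such as Havcr2 (TIM-3) at 63.6 to 139 adjusted reads in RANKL alone and 29.8 to 68.1 with surface proteins, where it did not pass (adjusted p = 0.0779, limma). Among the members' own receptors, Pdcd1 (PD-1) held 6.63 to 8.49 adjusted reads in RANKL alone, 0 to 4.09 with heat-killed MJ2 and 0 to 2.93 with surface proteins. Icos held 1.97 to 16.1, 0 to 9.18 and 0 to 6.56 in the same order, and both were too low for the filter. Cd28 held 2.76 to 11.8, 0 to 9.2 and 4.45 to 13.7, and did not pass with surface proteins (adjusted p = 0.394, limma). Of 7 tested between surface proteins and RANKL alone 2 rose and 1 fell, where 10.2% of all genes tested rose and 7.32% fell. Itgal, the alpha chain of LFA-1, rose from 6.90 to 11.2 adjusted reads in RANKL alone to 80.3 to 120 with surface proteins (log2 difference 3.47, SE 0.24, adjusted p = 0.000522, limma). Itgal entered the tests against RANKL alone only through the treated libraries. Itgam, the alpha chain of Mac-1, rose from 212 to 259 to a range of 1740 to 2150 (3.01, SE 0.16, adjusted p = 0.000226, limma). Itgax, the alpha chain of another integrin of this family, fell by 2.03 (SE 0.41, adjusted p = 0.0145, limma). With heat-killed MJ2 Itgal was higher by 2.53 (SE 0.30, adjusted p = 0.0105) and Itgam by 2.26 (SE 0.17, adjusted p = 0.00164, limma), and Itgax did not pass (-1.02, adjusted p = 0.181, limma). Their shared beta chain Itgb2 differed by 0.07 and 0.01 and did not pass in either comparison. With surface proteins the alpha chains thus moved in different directions, and Icam1 itself did not pass against RANKL alone with either treatment.

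Other ligands of T and NK cell receptors were listed as 26 genes, of which 10 could be tested. With surface proteins 6 rose and none fell, with a median log2 difference of 1.39, where 10.2% of all genes tested rose and 7.32% fell. With heat-killed MJ2 4 rose and none fell, with a median of 1.02, where 3.37% of all genes rose and 0.897% fell. Lgals9 (galectin-9, a ligand of TIM-3) showed the widest change, from 1.96 to 44.3 adjusted reads in RANKL alone to 252 to 461 with heat-killed MJ2 (4.75, SE 0.95, adjusted p = 0.0418) and 511 to 630 with surface proteins (5.43, SE 0.93, adjusted p = 0.00856, limma). Ceacam1, an adhesion receptor that also restrains T cells, rose by 1.93 (SE 0.22, adjusted p = 0.00851) and 3.82 (SE 0.30, adjusted p = 0.000771, limma) in the same order. Tnfsf9 (4-1BB ligand, a co-stimulator) rose by 2.54 with surface proteins (adjusted p = 0.00322) and 1.13 with heat-killed MJ2 (adjusted p = 0.0456, limma). Raet1e, a ligand of the NK cell receptor NKG2D, rose by 1.10 (adjusted p = 0.0179) and 1.76 (adjusted p = 0.0153, limma) in the same order. Between the treatments 4 of the 10 passed as higher with surface proteins and none as lower, beside 5.08% and 4.97% of all genes. Raet1e was lower there by a log2 difference of -0.66 (adjusted p = 0.0332), under the limit of 2-fold, and Cd200, a ligand that restrains myeloid cells, by -2.64, at the limit of the test (adjusted p = 0.05, limma).

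Of 16 genes of CD40 signalling downstream of the receptor, none passed as higher with either treatment, where 10.2% of all genes tested did with surface proteins and 3.37% with heat-killed MJ2, so with a list of this size a count of 0 is no result about it. Tnip1, an NF-κB restraining protein, was higher by 0.96 with surface proteins (adjusted p = 0.008), and Birc3, a ubiquitin ligase of the pathway, by 0.70 and 0.76 with surface proteins and heat-killed MJ2 (adjusted p = 0.049 and 0.0499, limma), all under the limit of 2-fold and named after their values were seen. Traf5, an adaptor that binds the tail of CD40, fell by 1.60 with surface proteins (SE 0.41, adjusted p = 0.031, limma), and none passed with heat-killed MJ2, where the median log2 difference was 0.10. In the list of 12 NF-κB subunits and inhibitors, 3 rose and 2 fell with surface proteins, where 17.5% of all genes passed. Nfkbiz, a nuclear co-regulator, rose by 3.39 (SE 0.34, adjusted p = 0.00168), Bcl3, another nuclear member of the inhibitor family, by 1.72 (SE 0.19, adjusted p = 0.00222), and Nfkbid fell by 1.52 (SE 0.21, adjusted p = 0.00456), by limma. The other two that passed were Nfkbib, higher by 1.23, and Nfkbie, which fell by 1.40, both named after their values were seen. No gene of this list passed with heat-killed MJ2, where 4.26% of all genes did, and none of the 5 DNA-binding subunits reached a fold change of 2 in a comparison with RANKL alone. Under that limit, Rel (log2 difference 0.90, adjusted p = 0.0347) and Nfkb1 (0.78, adjusted p = 0.0115, limma) were higher with surface proteins.

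The interferon axis, which is known to induce Cd274 and Cd40 in macrophages, was listed as 17 genes of receptors, kinases, transcription factors and a feedback inhibitor, of which 15 could be tested. With surface proteins 7 rose and none fell (median log2 difference 0.96), beside 10.2% and 7.32% of all genes tested, and with heat-killed MJ2 3 rose and none fell (median 0.22), beside 3.37% and 0.897%. Irf7, a factor that interferon induces, rose from 16.8 to 55.1 adjusted reads in RANKL alone to 293 to 765 with heat-killed MJ2 (3.62, SE 0.54, adjusted p = 0.0192) and 527 to 720 with surface proteins (4.19, SE 0.44, adjusted p = 0.00187, limma). Irf8, a macrophage factor that opposes osteoclast formation, rose by 2.83 with surface proteins (SE 0.46, adjusted p = 0.00756), and Socs1, a feedback inhibitor of the pathway, by 2.18 and 2.75 (adjusted p = 0.0169 and 0.0327, limma) with surface proteins and heat-killed MJ2. Socs1 held 1.79 to 7.65 adjusted reads in RANKL alone and entered both tests only through the treated libraries. Irf9, a subunit of the factor that type I interferon activates, rose by 1.38 with heat-killed MJ2 (SE 0.18, adjusted p = 0.013) and by 1.73 with surface proteins (SE 0.16, adjusted p = 0.00138, limma). Irf1, an early interferon-induced factor, passed with neither (0.65 with surface proteins and 0.59 with heat-killed MJ2, adjusted p = 0.0799 and 0.134, limma). Ifnb1 was listed at 0 in all 9 libraries.

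Of the genes that control how long these ligands stay at the surface, 8 were tested, and 1 passed with surface proteins and none with heat-killed MJ2, beside 17.5% and 4.26% of all genes tested. March8, a ubiquitin ligase that takes CD86 from the surface, rose by 1.28 (SE 0.14, adjusted p = 0.00203, limma). Cmtm6, which keeps PD-L1 at the surface, differed by 0.58 and 0.06 and did not pass (adjusted p = 0.0962 and 0.877, limma). Stub1, a ubiquitin ligase that acts on PD-L1, was lower by a log2 difference of -0.82 with surface proteins (adjusted p = 0.0286, limma), under the limit of 2-fold. Protein at the cell surface was not measured.

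**Figure D4:**
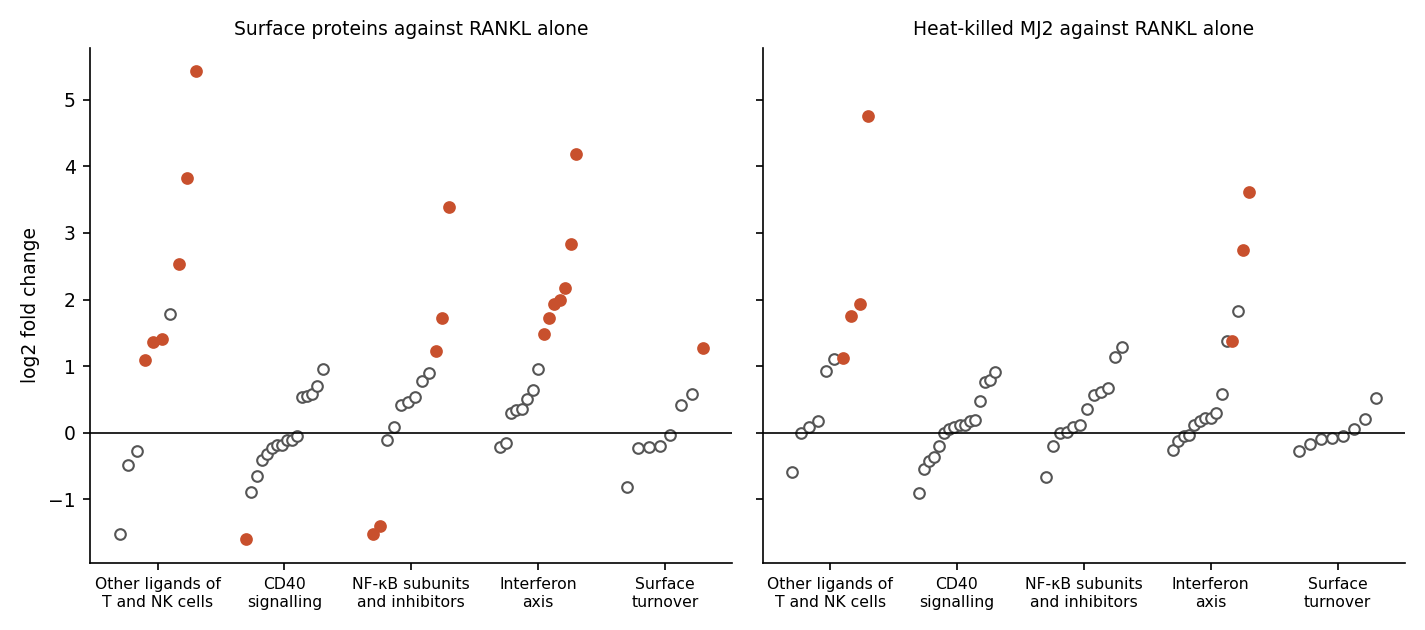
Log2 fold change (y axis) of each tested gene of 5 lists (x axis), for surface proteins and for heat-killed MJ2 against RANKL alone, with genes of a list in order of their value. Filled points passed (adjusted p under 0.05 and 2-fold or more). Filled points of the T and NK cell ligands and of the interferon axis lie above 0 in both panels (6 and 7 genes with surface proteins, 4 and 3 with heat-killed MJ2), and CD40 signalling has 1 filled point, below 0.

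Markers checked the cells themselves. Of 9 macrophage markers 8 could be tested, and the list had a summed level of 24440 to 26840 adjusted reads in RANKL alone, 29180 to 30560 in heat-killed MJ2 and 29890 to 31760 in surface protein-treated cells. Members of the list moved in both directions. With surface proteins 4 rose and 1 fell, beside 10.2% and 7.32% of all genes tested: Adgre1 (log2 difference 3.81), Itgam (3.01), Lyz2 (2.48) and Cd14 (2.37) were higher, as Cd40 was, and Csf1r was lower (-1.47). With heat-killed MJ2 3 rose, beside 3.37% of all genes: Cd14 (3.10), Lyz2 (2.79) and Itgam (2.26). The osteoclast markers had a summed level of 20910 to 33120, 13870 to 16030 and 5262 to 7864 in the same order, highest where Cd40 was lowest. Of 9 tested, 7 fell with surface proteins, where 7.32% of all genes fell, and 3 with heat-killed MJ2, where 0.897% did. The other 6 did not pass with heat-killed MJ2, and Mmp9 (0.58) and Itgb3 (0.34) had positive log2 differences there. Dendritic cell markers, of interest because CD40, CD83 and CD86 mark mature dendritic cells, summed to 58.23 to 84.06, 40.58 to 76.63 and 27.35 to 100.3 in the same order. Flt3 and Cd209a were at 0 in all libraries. Xcr1 was detected in every library, at 11.2 to 29.7, 8.67 to 26.6 and 18.2 to 28.4 adjusted reads. Zbtb46 ranged from 0.977 to 15.0, 2.07 to 11.6 and 0.956 to 18.5. None of the dendritic cell markers tested passed: Fscn1 differed by -2.73 with surface proteins (adjusted p = 0.0876) and -1.52 with heat-killed MJ2, Xcr1 by 0.34 and -0.15, and Zbtb46 by -0.08 and -0.06, while Ccl22 was tested only with heat-killed MJ2 against RANKL alone (2.02, adjusted p = 0.0838) and between the treatments (limma). All 6 T cell markers were at or under the floor in every library, as were 4 of 5 B cell markers, Cd79b reached 10.7 adjusted reads in a surface protein library, and the fibroblast and endothelial lists summed to at most 41.77 and 16.27. Col1a1, the only fibroblast gene tested, differed by -0.01 and 0.48. Dcn, a fibroblast matrix gene too low for the filter, had 0 to 0.057 adjusted reads in RANKL alone, 0 to 7.75 in heat-killed MJ2 and 9.81 to 23.2 in the surface protein libraries, which lay above all others. Of 12 reference genes none passed in any comparison (medians 0.09, 0.10 and 0.10). Under the limit of 2-fold, Tbp (0.76, adjusted p = 0.0187) and B2m (0.76, adjusted p = 0.0174) were higher with surface proteins than in RANKL alone. Sdha was lower there (-0.71, adjusted p = 0.0374, limma). The part that the osteoclast, macrophage and fibroblast markers have in the ligand levels was not tested.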

How the data were processed

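RAW264.7 libraries were made with a QuantSeq 3′ mRNA-Seq kit and sequenced as single-end reads. The submitters' processing notes name Bowtie2, bedtools and the mm10 build, and the annotation is not given in the sources used here. The authors deposited log2 values of normalized reads plus 1 for 23282 gene rows. The methods name quantile normalization between samples, but sorted values of the libraries are not identical (largest gap 1.60 in log2), so which scaling the values carry is not known. Adjusted reads were computed as 2 to the deposited log2 value minus 1. Of low values between 0.5 and 3.5, 73.1 to 100% per library lay within 0.25 of a whole number. Replicate libraries differed beyond sampling noise (chi-square per degree of freedom 6.90 to 18.5).

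Groups came from the sample labels. The tests planned for log values were used: limma 3.58.1 in R 4.3.3 (lmFit and eBayes), each comparison on its own 6 libraries, after a filter of 10 adjusted reads in 3 of the 6, with Benjamini-Hochberg adjustment over all genes tested, and exact permutation tests for differences within a library (scipy 1.17.1). The code was tested on simulated data. The members, gene lists and tests were chosen with earlier results of these data known. Genes named are all members, the 3 genes most like each tested member, up to 3 passing genes of each list with the largest change against RANKL alone, and the tested genes of lists with 5 or fewer. Any other gene was named after its values were seen. Of the 26 other ligands and 12 turnover genes listed, 23 and 9 had rows. Alternatives were other scalings, filters, constants before the log, priors, thresholds, a fit of all 9 libraries, a replicate block and leaving out each library. Protein sequences were not used here, and 1 gene of the interferon list and 1 motif are not reported here.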

Additional observations from a re-analysis of the deposited data

How the results depend on the processing

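The calls of Cd40 in all comparisons and of Cd274 with surface proteins held under every alternative in which they were tested. A filter of 10 adjusted reads in every library leaves out Cd40 and Icosl against RANKL alone, so the members passing were 1 with surface proteins and 0 with heat-killed MJ2, and no filter gave 2 with heat-killed MJ2 (Cd40 and Cd86) and 3 with surface proteins, where Cd86 took the place of Icosl. Both calls of Cd86 are against a control without reads. Between the treatments 3 members passed with a variance trend or at an unadjusted p under 0.05 (Cd40, Cd274 and Icosl, all higher). With no fold limit 3 passed as well, but these were Cd40 and Cd83 as higher and Icam1 as lower. The count was 2 with values raised to the floor (an alternative chosen after seeing the data), and 1 to 2 when a library was left out. Over all genes, no fold limit gave 3163 with surface proteins and 1949 between the treatments, and with heat-killed MJ2 no filter gave 267 and an unadjusted p 799, beside 461. Leaving out a library gave 189 to 334 genes with heat-killed MJ2 and 342 to 1167 between the treatments. Same-numbered libraries deviated together, but weakly: the correlation of their deviations was 0.0179 to 0.106, positive in all 9 pairs and over 0.1 in 1. In 18 of 18 comparisons a library matched best with its own number. The replicate numbers thus carry a small shared component, and its source was not tested. A replicate block changed no call of a member, and gave 289 genes with heat-killed MJ2, 1813 with surface proteins and 980 between the treatments. Fold changes that turned sign were far from the threshold. With a library left out, Cd83 with surface proteins ran from -0.41 to 0.08 (0.03 without replicate 3 of RANKL alone and 0.08 without replicate 2), and Cd80 between the treatments from -0.50 to 0.21 (0.03 without replicate 3 of heat-killed MJ2 and 0.21 without replicate 1 of surface proteins). Within libraries, with a constant of 0.1 the change of Cd274 minus Pdcd1lg2 was -1.45 with surface proteins. It was 0.55 on the deposited scale, where the groups overlapped (exact permutation p = 0.8). With values raised to the floor it was 1.87, without overlap (exact permutation p = 0.1). With the constant of 0.1 the change of Cd40 minus Cd86 was -1.02 and -1.93 with surface proteins and heat-killed MJ2, beside 1.74 and 0.78 on the deposited scale. The groups did not overlap at -1.02, -1.93 or 1.74 (exact permutation p = 0.1, the smallest possible), so the direction of this pair against RANKL alone, where Cd86 has no reads, depends on the constant. Leaving out a library gave -0.22 to 1.15 for Cd274 minus Pdcd1lg2 with surface proteins, -1.17 to 0.19 for the same pair between the treatments and -0.01 to 0.70 for Cd274 minus Cd86 between the treatments. Beyond the smaller number of libraries or genes in some of these fits, the cause was not tested. Counting error weighs most on Cd86, Icosl and Pdcd1lg2, which held at most 25.5 adjusted reads in a library.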
